A study of Mus musculus with 12 samples.

Results

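Basal and luminal cells of the virgin mouse mammary gland were compared by RNA sequencing. The comparison used the 2 basal virgin and the 2 luminal virgin libraries, chosen by their labels, out of 12 libraries in the series. All come from untreated wild-type FVB/N female mice whose mammary cells were sorted by flow cytometry straight from the gland and lysed; the study states 2 mice per stage, and the gate of the sort was not given in the sources used here. The other 8 libraries hold both layers at day 18.5 of pregnancy and day 2 of lactation, and they serve here as the later stages against which the virgin difference was tested. Basal libraries were run in lane 2 and luminal libraries in lane 1, so cell type and lane cannot be told apart.

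The mammary duct is a double-layered tube. Luminal cells face the lumen, are sealed by tight junctions, and include cells that sense oestrogen, progesterone and prolactin as well as progenitors of the cells that secrete milk. Basal cells rest on the basement membrane, and many are myoepithelial: they carry keratins of stratified epithelium together with smooth muscle proteins, and they contract in response to oxytocin. The layers exchange signals through WNT, Notch and EGF-family ligands and their receptors.

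The virgin libraries held 20.39 M to 23.23 M counts and 17932 to 18515 genes with a count. Levels are CPM, counts scaled to library size with TMM factors, given for replicates 1 and 2 in that order. Changes are log2 of basal over luminal with a standard error. Adjusted p-values come from the quasi-likelihood test of edgeR, adjusted by Benjamini-Hochberg over 15969 genes, and genes with an adjusted p below 0.05 are called. The labels do not tie a library to a mouse, so p-values measure the spread between these libraries, which may be technical.

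Markers of each layer followed the labels, with 1 exception. Krt5, the keratin that defines the basal layer, stood at 2047 and 1661 CPM in basal cells, against 3.77 and 3.78 CPM in luminal cells. Trp63, which encodes the p63 factor of stratified epithelium, stood at 281 and 222 CPM in basal cells, against 0.54 and 0.91 CPM in luminal cells. Krt18, a luminal keratin, stood at 124 and 121 CPM in basal cells and 2260 and 2271 CPM in luminal cells. For these genes both libraries of the layer lay far from both of the other layer. Gata3, a regulator of luminal differentiation, was the exception: it stood at 97.8 and 79.5 CPM in basal cells and 104 and 119 CPM in luminal cells and was not called (log2 change -0.33 ± 0.16, adjusted p = 0.0897), although it was called lower without basal virgin replicate 1 (adjusted p = 0.047), under library size scaling (-0.48) and with the replicate block (-0.33, adjusted p = 0.0344). The mean level of a basal marker in luminal cells was 0.204% of its basal level for Krt5, 0.624% for Krt14 and 0.288% for Trp63. It was 0.271% for Acta2 and 4.65% for Oxtr. The luminal markers Krt8 and Krt18 kept 10.8% and 5.4% of their luminal level in basal cells. The other luminal markers kept 4.33% (Krt19), 2.28% (Elf5), 7.26% (Esr1) and 79.6% (Gata3).

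**Figure D1:**
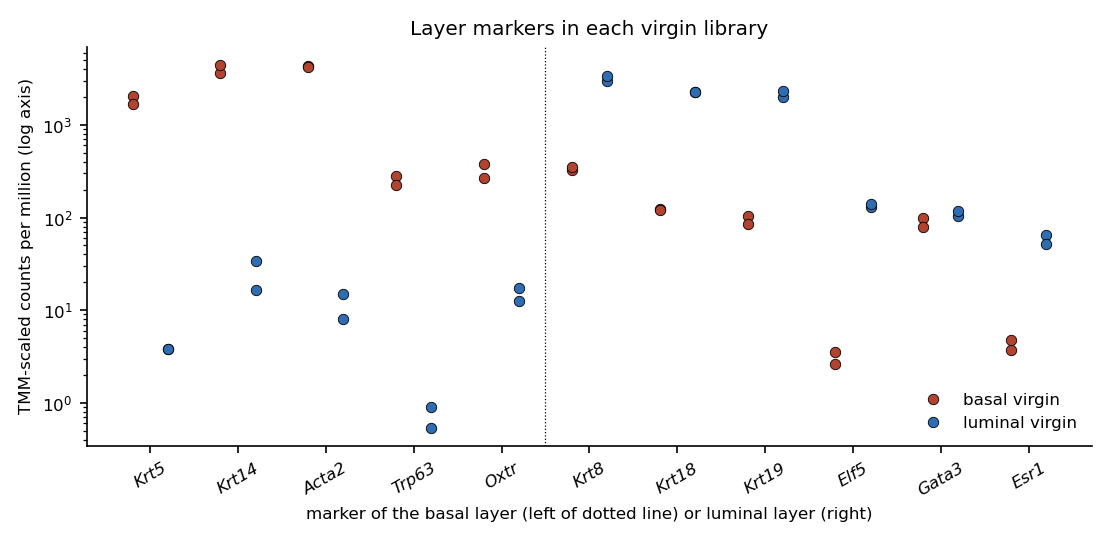
TMM-scaled CPM, on a log axis, of 5 basal and 6 luminal markers in each virgin library; each point is 1 library, basal left of luminal for each gene. Gata3 is the marker whose layers lie closest, at 97.8 and 79.5 CPM in basal cells and 104 and 119 CPM in luminal cells.

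The layers differed in most genes. Of the genes tested, 10023 (62.8%) were called, 5037 (31.5%) of them higher in basal cells and 4986 (31.2%) lower. The median log2 change over all genes was -0.01. Large changes leaned to the basal side. By more than 3 on the log2 scale, 1129 called genes were higher in basal cells and 678 were lower. Past 5 there were 467 higher and 246 lower. The part in this lean of transcripts from the other layer or from other cell types was not tested. Because so many genes were called, the counts for each gene group below stand beside these shares, and the size of the changes says more than the number of calls.

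**Figure D2:**
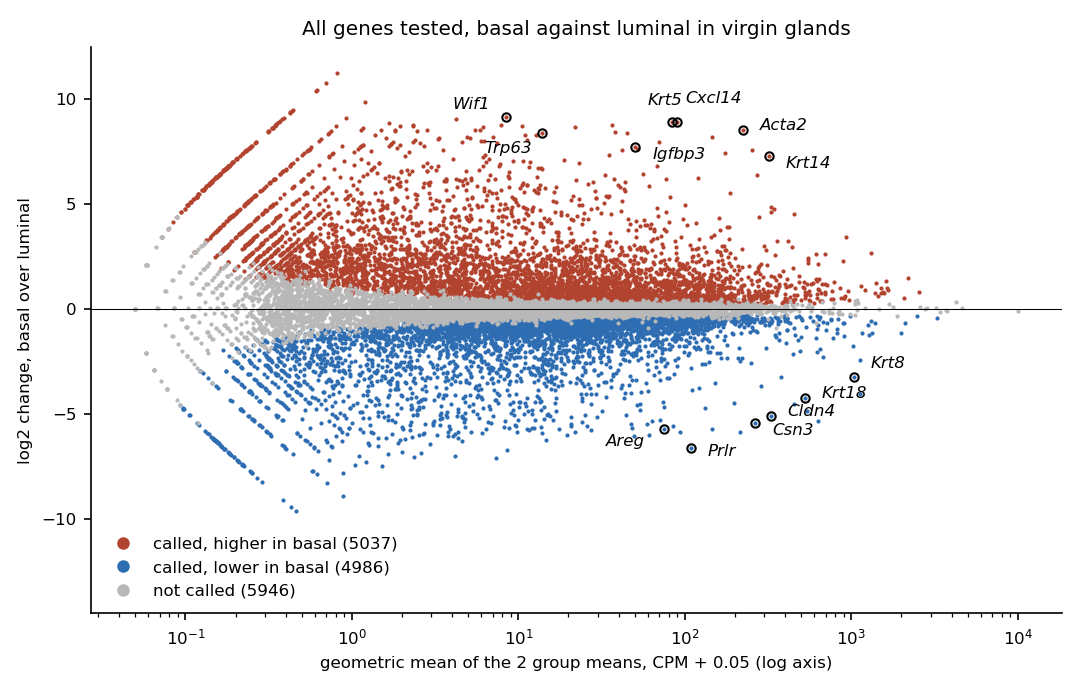
Each point is 1 of 15969 genes, placed by the geometric mean of its basal and luminal mean CPM after adding 0.05 (log axis) and its log2 change of basal over luminal; colours separate the 5037 genes called higher in basal cells, the 4986 called lower and the rest. Krt5 at 8.94 and Prlr at -6.61 lie far from 0 among the abundant genes.

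Markers of several other cell types were higher in basal cells. All 13 endothelial markers were (median log2 change 2.15), summing to 443 and 735 CPM in basal cells and 155 and 199 CPM in luminal cells; Pecam1 stood at 77.8 and 128 CPM in basal cells and 17.5 and 28.6 CPM in luminal cells. All 6 pericyte markers were higher too, summing to 39.7 and 58 CPM in basal cells and 4.84 and 6.48 CPM in luminal cells. The fibroblast list had 6 of 10 higher and 2 lower, summing to 410 and 450 CPM in basal cells and 460 and 448 CPM in luminal cells. A large part of the luminal sum was Dcn, a lower member. Dcn stood at 54.2 and 89.1 CPM in basal cells and 346 and 169.9 CPM in luminal cells, so similar sums do not mean similar levels of the other members. The leukocyte list had 1 of 8 tested higher and 1 lower. It summed to 9.98 and 11.6 CPM in basal cells and 10.6 and 10.5 CPM in luminal cells. Ptprc, the pan-leukocyte marker, stood at 0.42 and 0.57 CPM in basal cells and 0.29 and 0.14 CPM in luminal cells. The adipocyte list had 3 of 5 higher and 1 lower. It summed to 150 and 279 CPM in basal cells and 73.9 and 110 CPM in luminal cells. Most of its basal sum was 1 gene, Fabp4, at 137 and 258 CPM in basal cells and 33.7 and 52.8 CPM in luminal cells. The lower member was Lipe. In the erythroid list 1 of 4 was higher and 3 lower, in the Schwann cell list 4 of 5 higher and 1 lower, and in the skeletal muscle list 0 of 5 higher and 4 lower. Several of these counts depended on 1 library. Without basal virgin replicate 1 the fibroblast list had 1 lower, the leukocyte list 0 higher and 0 lower, and the skeletal muscle list 1 lower. Without basal virgin replicate 2 the adipocyte list had 1 higher and the leukocyte list 0 lower. Without luminal virgin replicate 1 the skeletal muscle list had 0 lower and the leukocyte list 0 higher. Without luminal virgin replicate 2 the fibroblast list had 1 lower, the leukocyte list 0 higher and 0 lower, and the erythroid list 0 higher. In bulk samples, fewer cells of a type and less RNA per cell cannot be told apart. The part of these cells in the results below was not tested. The endothelial Pecam1 had a change of 2.15 ± 0.26 and the pericyte list a median of 3.12. Col4a2 and Igfbp3, named below, had changes of 5.55 ± 0.17 and 7.74 ± 0.23. Changes of different genes do not measure the part of these cells. Of 17 immediate early genes, 9 were higher in basal cells, 2 were lower and 6 were not called (median log2 change 0.69); these genes respond to handling of tissue. With basal virgin replicate 2 or either luminal virgin library left out, 1 was lower. They summed to 31143 and 21831 CPM in basal cells and 19533 and 18645 CPM in luminal cells. Egr2 stood at 575 and 362 CPM in basal cells, against 39.8 and 47 CPM in luminal cells, while Fos, at 5821 and 3660 CPM in basal cells and 4010 and 3557 CPM in luminal cells, was not called. The part of sample handling in the result was not tested.

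By the rule for named genes, which asks for a mean of at least 20 CPM in the higher layer, the genes of largest change were Speer4d, Wif1, Cntn2, Krt5, Cxcl14, Cnn1, Moxd1, Tmem200a, Kcnq5, Capn6, Adamts18 and Scn7a, with log2 changes of 8.7 to 9.88. Wif1 (chromosome 10, 121034004 to 121100642, GRCm38.p6), a secreted inhibitor that binds WNT ligands, stood at 185 and 197 CPM in basal cells, against 0.22 and 0.44 CPM in luminal cells (log2 change 9.15 ± 0.19, adjusted p = 1.2e-11). Cxcl14 (chromosome 13, 56288643 to 56296811), a chemokine, stood at 2076 and 1885 CPM in basal cells, against 2.94 and 5.1 CPM in luminal cells. The rule also asks that both basal libraries lie above both luminal ones, or the reverse, so the separation of these genes is not a result. Cntn2, a neuronal adhesion molecule, stood at 76.3 and 99.2 CPM in basal cells, against 0.072 and 0.24 CPM in luminal cells. Scn7a, of the sodium channel family, stood at 426 and 445 CPM in basal cells, against 0.75 and 1.32 CPM in luminal cells. The potassium channel gene Kcnq5 stood at 37.6 and 42.1 CPM in basal cells, against 0.036 and 0.14 CPM in luminal cells. Speer4d had 456 and 713 counts in basal cells and 0 and 1 in luminal cells, a ratio of 1220 with a 95% interval of 218 to 48200 that covers counting error only, and it belongs to a multigene family, so its count is uncertain. Luminal counts near 0 made some sizes depend on 1 library. Without luminal virgin replicate 2 the log2 change was 11.91 for Speer4d, 9.75 for Wif1, 10.15 for Cntn2, 9.92 for Tmem200a, 9.91 for Kcnq5 and 9.59 for Capn6. Without luminal virgin replicate 1 it was 9.09 for Speer4d, 8.16 for Tmem200a and 8.15 for Kcnq5.

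On the luminal side the genes of largest change were Cxcl15, Cyp3a57, Dmbt1, Fgb, Prlr, Fer1l4, Dkkl1, Tph1, Abcc8, Sidt1, R3hdml and Slc28a3, with log2 changes of -7.09 to -6.03. Prlr (chromosome 15, 10177238 to 10349190), the prolactin receptor, stood at 12.9 and 9.08 CPM in basal cells and 1126 and 1024 CPM in luminal cells (log2 change -6.61 ± 0.22, adjusted p = 1.35e-10). Tph1, which encodes the rate-limiting enzyme of serotonin synthesis outside the brain, stood at 1.98 and 1.33 CPM in basal cells and 119 and 134 CPM in luminal cells. Slc28a3, a nucleoside transporter, stood at 6.26 and 5.9 CPM in basal cells and 391 and 402 CPM in luminal cells. The luminal replicates of these genes lay close together. Cxcl15, a chemokine, stood at 0.49 and 0.72 CPM in basal cells and 48.5 and 116 CPM in luminal cells, and Dmbt1, a secreted defence protein, at 0.28 and 0.15 CPM in basal cells and 13.9 and 37.4 CPM in luminal cells. The luminal replicates of Cxcl15 and Dmbt1 lay far apart. Without luminal virgin replicate 2 the log2 change was -6.33 for Cxcl15, -5.79 for Cyp3a57 and -5.97 for Dmbt1, and without luminal virgin replicate 1 it was -7.63 for Cyp3a57.

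Keratins divided the layers. Of 6 basal keratins, 5 were higher in basal cells, 1 was lower and 0 were not called (median log2 change 6.35). Krt14, the partner of Krt5, had the highest level of the group per length (2433 CPM per kb in basal cells) and stood at 3658 and 4418 CPM in basal cells, against 16.7 and 33.7 CPM in luminal cells. Its log2 change was 7.32, or 7.92 without luminal virgin replicate 2. Krt17 and Krt15, other keratins of basal and appendage epithelium, had log2 changes of 7.43 ± 0.27 and 5.37 ± 0.27. The exception was Krt6a, a keratin of activated epithelium, at 23 and 22.2 CPM in basal cells and 84.1 and 116 CPM in luminal cells (log2 change -2.14 ± 0.2, adjusted p = 1.07e-06). Both luminal libraries were above both basal ones, but Krt6a is nearly identical to its neighbour Krt6b and shares 24.8% of its exon length with another gene model, so its count is uncertain. Of 4 luminal keratins, 0 were higher in basal cells, 4 were lower and 0 were not called (median log2 change -4.31). Krt8, the highest of them per length in luminal cells (1756 CPM per kb), stood at 329 and 355 CPM in basal cells and 3002 and 3337 CPM in luminal cells, and Krt19 stood at 103 and 84.4 CPM in basal cells and 1990 and 2343 CPM in luminal cells. The basal libraries were below the luminal ones in every luminal keratin. The share of all genes separated in this way is not given here, and 31.2% of all genes were called lower in basal cells.

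The contractile apparatus was largely basal. Of 18 contractile genes, 16 were higher in basal cells, 1 was lower and 1 was not called (median log2 change 5.06), against -0.01 for all genes. Without luminal virgin replicate 2 the median was 6.29, and 0 genes were lower without that library, luminal virgin replicate 1 or basal virgin replicate 2. Acta2, the smooth muscle actin used to stain myoepithelium, stood at 4318 and 4226 CPM in basal cells, against 8.1 and 15.1 CPM in luminal cells (log2 change 8.52 ± 0.32, adjusted p = 3.41e-10). Myh11, the smooth muscle myosin heavy chain, stood at 2622 and 2361 CPM in basal cells, against 5.74 and 11.2 CPM in luminal cells. The groups did not overlap and the luminal levels were under 20 CPM in both genes. Myl9, the regulatory myosin light chain, and Mylk, its kinase, had log2 changes of 7.59 ± 0.27 and 7.65 ± 0.24. The actin-binding genes Cnn1 (calponin), Tpm2 (tropomyosin) and Tagln (transgelin) had changes of 8.8 ± 0.28, 7.98 ± 0.25 and 6.4 ± 0.24. The factors that drive such genes in smooth muscle differed less. Srf stood at 177 and 173 CPM in basal cells and 129 and 164 CPM in luminal cells and was not called (log2 change 0.25 ± 0.12, adjusted p = 0.0765), although it was called higher without luminal virgin replicate 2 (adjusted p = 0.0121) and with DESeq2. Its cofactor Mrtfa was higher in basal cells (log2 change 1.25 ± 0.12) and its cofactor Mrtfb lower (-0.34 ± 0.11, adjusted p = 0.0199), a call lost without basal virgin replicate 2 (adjusted p = 0.122), luminal virgin replicate 1 (0.0635) or luminal virgin replicate 2 (0.0827). Pericytes carry much of the same apparatus; the 6 pericyte markers summed to 39.7 and 58 CPM in basal cells and 4.84 and 6.48 CPM in luminal cells, and their part in these values was not tested.

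Promoters of the contractile genes were read for the CArG box, the sequence that SRF binds, and the matches are shown to place the motif against the changes. RefSeq promoters (GRCm38.p6, 250 bases before to 50 after the start) were present for 14 of the 18 genes. Of these, 2 held a match, Myl9 and Srf, against 1.81% of all 27025 genes with a promoter and 1.63% of 32851 promoters. The pattern reads alike on both strands. Each promoter is given 5′ to 3′ on the strand of its gene with every CArG box in capitals; that of Myl9 is chr2:156775214-156775513 on the plus strand and that of Srf is chr17:46556113-46556412 on the minus strand.
Myl9: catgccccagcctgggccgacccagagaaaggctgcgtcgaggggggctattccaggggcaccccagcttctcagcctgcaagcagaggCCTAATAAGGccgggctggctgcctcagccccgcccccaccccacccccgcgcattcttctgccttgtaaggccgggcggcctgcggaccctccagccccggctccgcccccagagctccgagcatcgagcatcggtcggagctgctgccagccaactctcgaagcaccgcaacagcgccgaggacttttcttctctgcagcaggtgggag
Srf: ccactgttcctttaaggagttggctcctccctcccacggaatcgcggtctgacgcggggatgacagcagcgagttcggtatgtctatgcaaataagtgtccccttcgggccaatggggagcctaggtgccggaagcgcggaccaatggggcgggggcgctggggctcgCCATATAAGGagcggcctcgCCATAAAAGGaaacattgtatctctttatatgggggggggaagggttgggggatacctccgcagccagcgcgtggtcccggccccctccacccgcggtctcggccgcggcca
Myl9 was among the genes of large change and Srf was not called. For the other 12 genes, no match says only that these letters are not in this window.

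Genes of contraction signalling were divided. Of 18 signalling genes, 11 were higher in basal cells, 3 were lower and 4 were not called (median log2 change 0.6). Oxtr, the oxytocin receptor, stood at 375 and 265 CPM in basal cells, against 17.3 and 12.6 CPM in luminal cells (log2 change 4.43 ± 0.26, adjusted p = 1.71e-08). Kcnmb1, a subunit of the large-conductance calcium-activated potassium channel, stood at 26.5 and 29.4 CPM in basal cells, against 0.036 and 0.1 CPM in luminal cells, and its log2 change was 8.54, or 9.4 without luminal virgin replicate 2. Cacna1c, a voltage-gated calcium channel, had a change of 4.72 ± 0.15. The receptor and channel genes named here were far apart between layers, whereas the G protein and Rock genes named next were less so. Mylk, the myosin kinase given with the contractile genes, was far apart as well. The G protein subunits Gnaq and Gna11 had changes of 0.46 ± 0.14 and -0.09 ± 0.11, and the kinases Rock1 and Rock2 of 0.6 ± 0.11 and 0.19 ± 0.14; Gna11 and Rock2 were not called, and Gnaq was not called without basal virgin replicate 2 (adjusted p = 0.11) or luminal virgin replicate 1 (0.08). Orai1, the pore of store-operated calcium entry, was lower in basal cells, at 7.48 and 8.89 CPM in basal cells and 21.1 and 26.7 CPM in luminal cells, while its activator Stim1 was higher (log2 change 1.74 ± 0.11).

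Basement membrane genes were basal. Of 20 genes of the list, 19 were higher in basal cells, 1 was lower and 0 were not called (median log2 change 2.93). Col4a1 and Col4a2 encode the main collagen IV chains. Col4a1 stood at 1382 and 1894 CPM in basal cells, against 66.2 and 64.2 CPM in luminal cells, and Col4a2 stood at 1137 and 1425 CPM in basal cells, against 27.9 and 26.8 CPM in luminal cells. Laminin genes followed, among them Lama1 (log2 change 4.83 ± 0.17) and Lama3 and Lamb3 (3.92 ± 0.29 and 3.33 ± 0.18). Lama5 was the exception, at 512 and 452 CPM in basal cells and 763 and 868 CPM in luminal cells (log2 change -0.76 ± 0.16, adjusted p = 0.00135). Col17a1, the transmembrane collagen of hemidesmosomes, stood at 829.9 and 812 CPM in basal cells, against 2.04 and 2.84 CPM in luminal cells. Of 17 integrin and hemidesmosome genes, 14 were higher in basal cells, 3 were lower and 0 were not called (median log2 change 1.17). Itga6 and Itgb1 are integrins often used to sort basal cells, and whether this sort used them was not given in the sources used here; their changes were 1.95 ± 0.16 and 1.2 ± 0.14. Itga9 had the largest change of the group, 5.9 ± 0.2. Itga2, Itgb6 and Plec were lower in basal cells, with changes of -0.58 ± 0.18, -1.24 ± 0.22 and -0.5 ± 0.14. Leaving out 1 library ended the call of Itga2 without basal virgin replicate 1 (adjusted p = 0.123) or luminal virgin replicate 1 (0.055), and that of Plec without basal virgin replicate 2 (0.0673) or luminal virgin replicate 2 (0.068). Blood vessels also make basement membrane; the 13 endothelial markers summed to 443 and 735 CPM in basal cells and 155 and 199 CPM in luminal cells, and their part in these values was not tested.

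Of 14 basal transcription factors, 12 were higher in basal cells, 1 was lower and 1 was not called (median log2 change 3.07). Trp63 and the homeobox gene Irx4 had the largest changes, 8.42 ± 0.26 and 8.21 ± 0.28. Snai2 (Slug), linked to basal identity, stood at 40.6 and 49.7 CPM in basal cells, against 0.43 and 0.2 CPM in luminal cells, and its log2 change was 7.15, or 7.76 without luminal virgin replicate 1. Its relative Snai1 stood at 9.49 and 11.3 CPM in basal cells and 9.61 and 9.49 CPM in luminal cells and was not called, with the libraries of both layers at similar levels. Sox10, a neural crest factor also used as a mammary progenitor marker, was lower in basal cells, at 128 and 106 CPM in basal cells and 177 and 189 CPM in luminal cells (adjusted p = 0.000672).

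Of 20 luminal transcription factors, 1 was higher in basal cells, 17 were lower and 2 were not called (median log2 change -1.07). Cited1, a transcriptional coregulator of oestrogen responses, stood at 3.93 and 3.41 CPM in basal cells and 211 and 193 CPM in luminal cells. Elf5, which directs alveolar fate, stood at 2.61 and 3.56 CPM in basal cells and 131 and 140.3 CPM in luminal cells. Foxa1, the partner of the oestrogen receptor, and Ehf, an epithelial ETS factor, had changes of -5.14 ± 0.16 and -5.06 ± 0.25. In contrast to these, Stat5a, Tbx3 and Ovol1 had changes of -0.43 ± 0.14, -0.62 ± 0.19 and -0.8 ± 0.18, smaller in size. Stat5a was not called when any 1 of the virgin libraries was left out (adjusted p = 0.0638 and 0.0584 without basal replicates 1 and 2, 0.0526 and 0.0622 without luminal replicates 1 and 2), and Tbx3 not without basal virgin replicate 2 (0.117). Grhl2, an epithelial factor, was not called, at 90.7 and 90.9 CPM in basal cells and 97.3 and 85.2 CPM in luminal cells (adjusted p = 0.964). Runx1 was the member higher in basal cells, at 642 and 798 CPM in basal cells and 188 and 225 CPM in luminal cells (log2 change 1.8 ± 0.14, adjusted p = 1.59e-07), with no overlap between layers.

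Hormone-sensing genes were luminal. Of 11 genes of the list, 1 was higher in basal cells, 10 were lower and 0 were not called (median log2 change -4.37); without basal virgin replicate 2 or luminal virgin replicate 2, 0 were higher. Esr1, the oestrogen receptor, stood at 3.69 and 4.77 CPM in basal cells and 64.9 and 51.5 CPM in luminal cells, and Pgr, the progesterone receptor, at 13.9 and 13.4 CPM in basal cells and 72.9 and 112 CPM in luminal cells. Signals sent by hormone-sensing cells lay on the same side: Areg (amphiregulin) had a change of -5.7 ± 0.29 and Wnt4 of -4.37 ± 0.22. Tnfsf11, which encodes RANKL, stood at 0.24 and 0.68 CPM in basal cells and 23.2 and 14.1 CPM in luminal cells, with a log2 change of -5.34, or -6.22 without basal virgin replicate 2. Its receptor gene Tnfrsf11a (RANK), a member of the secretory list, lay on the opposite side, at 25.1 and 22.7 CPM in basal cells and 11.5 and 8.71 CPM in luminal cells (log2 change 1.24 ± 0.16, adjusted p = 1.95e-05).

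Genes of luminal progenitors and milk secretion were luminal. Of 15 genes of the list, 2 were higher in basal cells, 13 were lower and 0 were not called (median log2 change -5.04); without luminal virgin replicate 1, 1 was higher. Kit, a receptor tyrosine kinase of luminal progenitors, stood at 8.03 and 7.46 CPM in basal cells and 275 and 234 CPM in luminal cells. Milk protein genes were already separated before pregnancy. Csn3, which encodes kappa-casein, stood at 35.7 and 45.6 CPM in basal cells and 1632 and 1825 CPM in luminal cells. Csn1s1, an alpha-casein gene, stood at 20.8 and 35.8 CPM in basal cells and 1406 and 1826 CPM in luminal cells. Wap, the whey acidic protein, stood at 1.04 and 1.48 CPM in basal cells and 72.2 and 75.5 CPM in luminal cells. The luminal libraries were above the basal ones in each, and the log2 changes were -5.41 ± 0.25, -5.84 ± 0.35 and -5.87 ± 0.41. Csn2 (beta-casein) and Lalba (alpha-lactalbumin) had changes of -5.83 and -5.58, or -6.47 and -6.17 without basal virgin replicate 2. Itgb3 (CD61), used as a progenitor marker, was higher in basal cells, at 35.5 and 33.6 CPM in basal cells and 15.9 and 27.5 CPM in luminal cells (adjusted p = 0.00805), but not called without luminal virgin replicate 1 (adjusted p = 0.0718).

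Promoters of this list were read for the GAS element, which STAT5 binds downstream of the prolactin receptor, written as TTC, then any 3 bases, then GAA; it reads alike on both strands. RefSeq promoters were present for 11 of the 15 genes and 2 held a match, Csn1s1 and Csn2, against 9.55% of genes and 8.3% of promoters. The casein promoters are shown 5′ to 3′ on the strand of the gene with the element in capitals; that of Csn1s1 is chr5:87665958-87666257 on the plus strand and that of Csn2 is chr5:87699376-87699675 on the minus strand.
Csn1s1: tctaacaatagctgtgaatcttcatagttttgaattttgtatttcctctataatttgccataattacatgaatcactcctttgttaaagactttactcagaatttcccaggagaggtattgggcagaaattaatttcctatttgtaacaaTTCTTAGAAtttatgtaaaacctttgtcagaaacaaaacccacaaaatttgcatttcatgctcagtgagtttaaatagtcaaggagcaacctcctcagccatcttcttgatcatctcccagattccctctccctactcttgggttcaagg
Csn2: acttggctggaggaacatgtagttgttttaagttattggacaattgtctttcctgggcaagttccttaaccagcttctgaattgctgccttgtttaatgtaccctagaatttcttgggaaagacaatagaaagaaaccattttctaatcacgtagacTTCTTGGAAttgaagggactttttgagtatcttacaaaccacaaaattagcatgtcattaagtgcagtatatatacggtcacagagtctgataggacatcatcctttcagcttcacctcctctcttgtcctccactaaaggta
The end of the element lies 91 bases before the start in Csn1s1 and 84 in Csn2. Their log2 changes, given above, were close to each other. Wap (-5.87), Lalba (-5.58) and Csn3 (-5.41), which are not among the genes with a match, had changes of similar size.

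**Figure D3:**
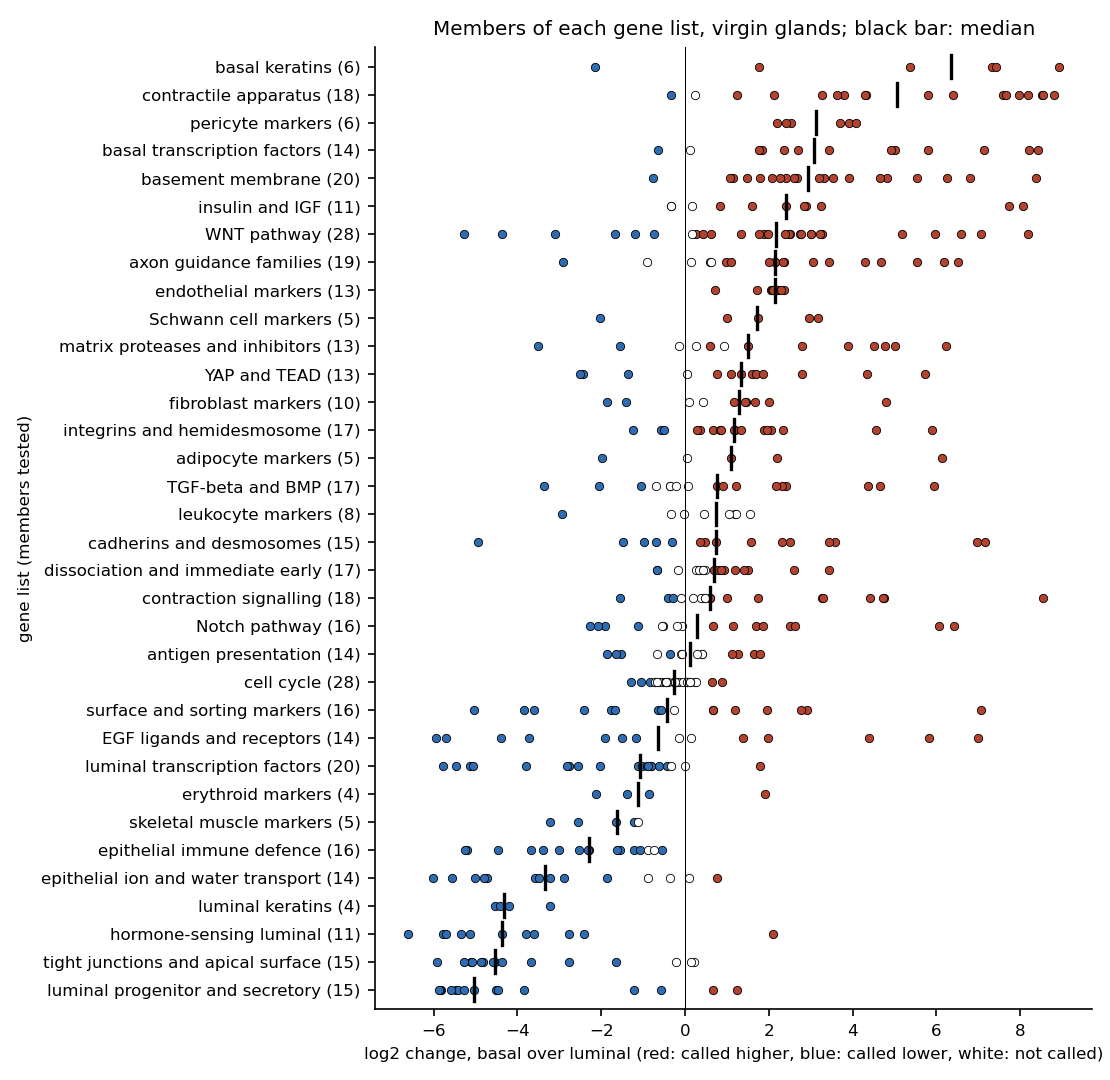
Log2 change of basal over luminal for each tested member of the gene lists, with the median of each list; colours give members called higher in basal cells, called lower and not called. The contractile list has its median at 5.06 and the luminal progenitor and secretory list at -5.04.

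Tight junction and apical genes were luminal. Of 15 genes of the list, 0 were higher in basal cells, 12 were lower and 3 were not called (median log2 change -4.53). Cldn4, a claudin, stood at 53 and 58.7 CPM in basal cells and 1737 and 2093 CPM in luminal cells (log2 change -5.1 ± 0.27, adjusted p = 5.34e-09). Ocln, which encodes occludin, stood at 3.48 and 2.65 CPM in basal cells and 88 and 92.1 CPM in luminal cells. The scaffold Tjp1 and the adhesion molecule F11r were not called, with changes of 0.21 ± 0.12 and 0.15 ± 0.1, whereas the scaffold Tjp3 had -5.08 ± 0.23. Of 15 cadherin and desmosome genes, 10 were higher in basal cells, 5 were lower and 0 were not called (median log2 change 0.73). Cdh3 (P-cadherin) stood at 259.8 and 254 CPM in basal cells, against 1.83 and 2.23 CPM in luminal cells, and Cdh1 (E-cadherin) at 186 and 252 CPM in basal cells and 578 and 641 CPM in luminal cells. The plakophilins, which link desmosomes to keratin, went both ways, with Pkp1 at 2.52 ± 0.2 and Pkp2 at -4.94 ± 0.17.

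WNT genes were mostly basal. Of 28 tested of 29 WNT pathway genes, 21 were higher in basal cells, 6 were lower and 1 was not called (median log2 change 2.18), and Lef1 had 0 counts in all 4 libraries. The ligands were divided between layers. Wnt10a stood at 76.7 and 79 CPM in basal cells, against 0.14 and 0.37 CPM in luminal cells. Wnt11 was also basal (log2 change 5.18 ± 0.22). Wnt4 was luminal, at 5.46 and 5.15 CPM in basal cells and 121 and 98.4 CPM in luminal cells, as were Wnt5a, Wnt5b and Wnt7b (-1.19 ± 0.17, -1.67 ± 0.13 and -3.1 ± 0.28). Rspo1, a secreted amplifier of WNT signals, stood at 2.33 and 1.63 CPM in basal cells and 90.6 and 64.2 CPM in luminal cells. The genes of its receptors were higher in the opposite layer. Lgr5 stood at 129 and 77.5 CPM in basal cells, against 1.08 and 0.47 CPM in luminal cells, and Lgr4 and Lgr6 had changes of 2.75 ± 0.18 and 1.78 ± 0.19. In luminal cells Lgr4 was still read at 24.6 and 21.1 CPM and Lgr6 at 37 and 35.2 CPM. Of the Frizzled receptors, Fzd7 stood at 335 and 204 CPM in basal cells, against 28.4 and 27.5 CPM in luminal cells, Fzd6 was lower in basal cells (-0.74 ± 0.1) and Fzd4 was not called (0.16 ± 0.19). Axin2, a common target of canonical WNT signalling, stood at 25.2 and 17.7 CPM in basal cells, against 3.16 and 2.2 CPM in luminal cells (log2 change 3.0 ± 0.26, adjusted p = 6.56e-07). The sizes for Wnt10a and Lgr5 depended on luminal counts near 0: 8.19 for Wnt10a, or 9.03 without luminal virgin replicate 2, and 7.06 for Lgr5, or 7.75 without luminal virgin replicate 1.

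The Notch ligands tested were higher in the basal layer, and most Notch targets were higher in the luminal layer. Of 16 tested of 17 Notch pathway genes, 8 were higher in basal cells, 5 were lower and 3 were not called (median log2 change 0.3). The ligand Dll1 stood at 497 and 546 CPM in basal cells, against 5.7 and 6.42 CPM in luminal cells (log2 change 6.43 ± 0.16, adjusted p = 2.83e-11), and the ligands Jag2, Jag1 and Dll4 had changes of 6.06 ± 0.19, 2.52 ± 0.12 and 1.14 ± 0.24. The receptors did not follow the ligands. Notch1 and Notch2 were not called (-0.07 ± 0.15 and -0.18 ± 0.12; Notch2 was called lower under library size scaling, at -0.33), and Notch3 was lower in basal cells, at 36.2 and 47.8 CPM in basal cells and 153 and 163 CPM in luminal cells. The target Hes1 stood at 85.2 and 66.1 CPM in basal cells and 282 and 357 CPM in luminal cells (log2 change -2.08 ± 0.21, adjusted p = 2.02e-06), and Hey1, Heyl and Nrarp were lower in basal cells as well (-1.12 ± 0.26, -2.27 ± 0.21 and -0.53 ± 0.14), while Hey2 was not called; the call of Nrarp was lost without basal virgin replicate 2 (adjusted p = 0.0545).

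EGF-family ligands were divided between layers. Of 14 EGF ligands and receptors, 5 were higher in basal cells, 7 were lower and 2 were not called (median log2 change -0.65). Areg stood at 8.59 and 12.1 CPM in basal cells and 509.8 and 565 CPM in luminal cells. Btc (betacellulin) had a change of -5.93, or -6.71 without basal virgin replicate 1. The neuregulin gene Nrg1 was basal, at 27.6 and 34.4 CPM in basal cells, against 0.39 and 0.68 CPM in luminal cells, and so was Nrg2, with a change of 6.99, or 6.32 without luminal virgin replicate 1 and 8.4 without luminal virgin replicate 2. Among the receptors, Egfr was higher in basal cells, at 113 and 128 CPM in basal cells, against 53.2 and 39.3 CPM in luminal cells, while Erbb2, Erbb3 and Erbb4 were lower (-1.91 ± 0.11, -3.72 ± 0.18 and -4.39 ± 0.39). Areg, a ligand of EGFR, and Nrg1 and Nrg2, ligands of ERBB3 and ERBB4, were each higher in the layer where the receptor gene was lower. This holds for these ligands only. Btc and the receptor gene Erbb4 were both higher in luminal cells, and the other ligands of the list were not set against receptors.

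**Figure D4:**
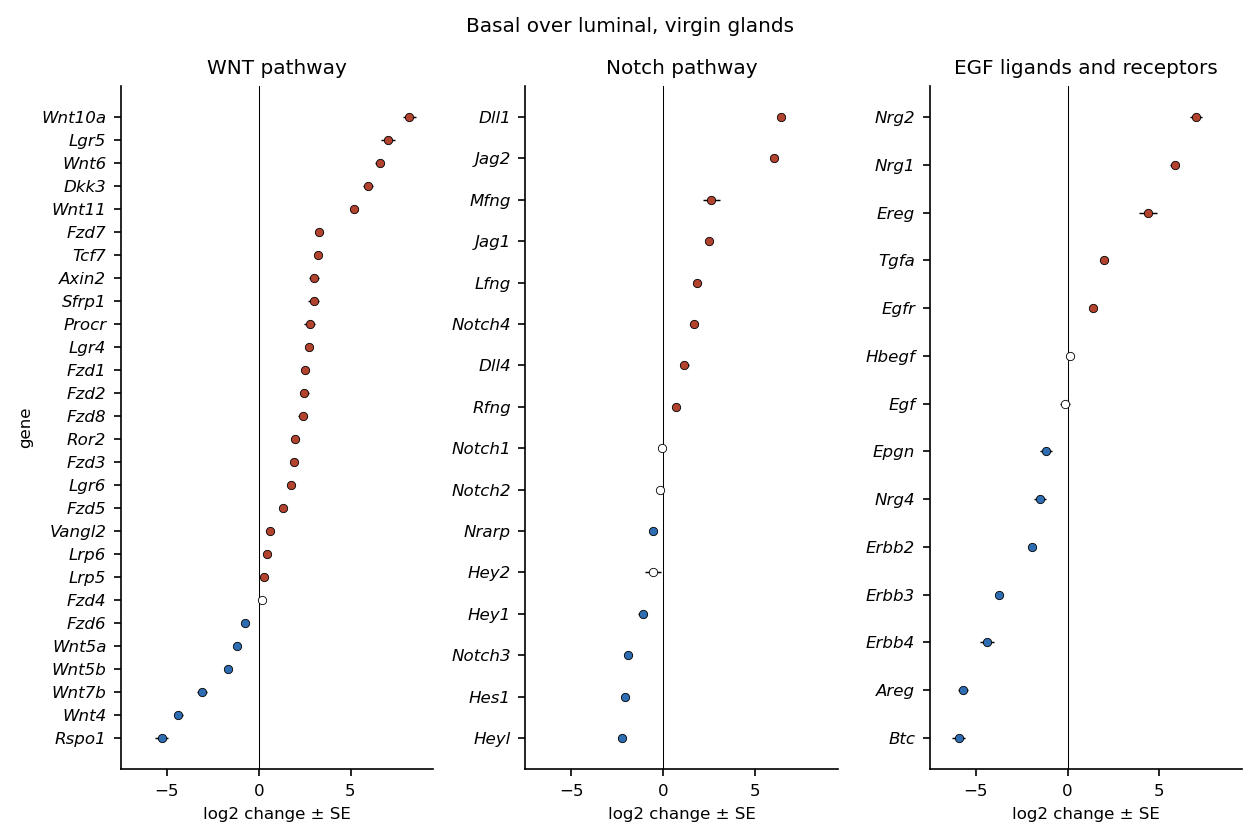
Log2 change of basal over luminal in virgin glands, with bars of 1 standard error, for the tested members of the WNT, Notch and EGF lists; colours give called higher in basal cells, called lower and not called. Wnt10a, Dll1 and Nrg2 stand at 8.19, 6.43 and 6.99, and Rspo1, Heyl and Btc at -5.28, -2.27 and -5.93.

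Of 17 TGF-beta and BMP genes, 9 were higher in basal cells, 4 were lower and 4 were not called (median log2 change 0.76). Bmp7, a BMP ligand, stood at 98.2 and 75.8 CPM in basal cells, against 1.33 and 1.49 CPM in luminal cells, and Tgfbr3, a co-receptor, at 385 and 388 CPM in basal cells, against 15.6 and 15.1 CPM in luminal cells. Inhbb, which encodes an activin subunit, was luminal (log2 change -3.37 ± 0.21). Of 11 tested of 12 insulin and IGF genes, 8 were higher in basal cells, 1 was lower and 2 were not called (median log2 change 2.42); with any 1 virgin library left out, 0 were lower. The proteins encoded by Igfbp3 and Igfbp2 bind IGFs outside the cell. Igfbp3 stood at 616 and 856 CPM in basal cells, against 2.62 and 4.22 CPM in luminal cells, and Igfbp2 at 214 and 141 CPM in basal cells, against 0.61 and 0.71 CPM in luminal cells. Igfbp5 was high in both layers, at 3052 and 3701 CPM in basal cells and 2002 and 1795 CPM in luminal cells. Of 13 YAP and TEAD genes, 9 were higher in basal cells, 3 were lower and 1 was not called (median log2 change 1.33). The coactivator Yap1 had a change of 1.59 ± 0.11, and the target genes Ccn2 and Ccn1 had changes of 2.8 ± 0.25 and -1.36 ± 0.26, in opposite directions.

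Of 13 matrix proteases and inhibitors, 8 were higher in basal cells, 2 were lower and 3 were not called (median log2 change 1.51); without basal virgin replicate 1, basal virgin replicate 2 or luminal virgin replicate 2, 1 was lower. Adamts1, a secreted protease, stood at 1934 and 1645 CPM in basal cells, against 61.1 and 69.5 CPM in luminal cells, and Timp3, a protease inhibitor, at 615 and 760 CPM in basal cells, against 44.5 and 47.9 CPM in luminal cells. Mmp15, a membrane-bound protease, was luminal (log2 change -3.51 ± 0.18). Of 19 tested of 21 axon guidance genes, 15 were higher in basal cells, 1 was lower and 3 were not called (median log2 change 2.15); these ligands and receptors also act in adhesion and branching of the ducts. With the replicate block 2 were lower. Slit3 stood at 85.1 and 78.9 CPM in basal cells, against 0.75 and 1.01 CPM in luminal cells (log2 change 6.52 ± 0.17), and the Slit receptor gene Robo1 had a change of 2.36 ± 0.18. Ntn1, which encodes netrin-1, was the luminal member, at 25.8 and 17.8 CPM in basal cells and 179.7 and 150.3 CPM in luminal cells, while its receptor gene Neo1 was higher in basal cells (0.99 ± 0.1).

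Epithelial defence genes were luminal. Of 16 genes of the list, 0 were higher in basal cells, 14 were lower and 2 were not called (median log2 change -2.3), and the median was -2.92 without basal virgin replicate 2. Ltf (lactoferrin) stood at 52.2 and 32 CPM in basal cells and 1146 and 723 CPM in luminal cells. Pigr, which carries IgA across the epithelium, stood at 0.56 and 0.53 CPM in basal cells and 15.3 and 24.9 CPM in luminal cells. Of 14 antigen presentation genes, 4 were higher in basal cells, 4 were lower and 6 were not called (median log2 change 0.11); without luminal virgin replicate 2, 2 were higher. The immunoproteasome genes Psmb8 and Psmb9 were lower in basal cells (-1.64 ± 0.18 and -1.85 ± 0.24), Nlrc5, an activator of class I genes, was higher (1.65 ± 0.27), and the class I genes H2-K1 and H2-D1 were not called; the H2 genes have near-identical copies, so their counts are uncertain. Of 14 ion and water transport genes, 1 was higher in basal cells, 10 were lower and 3 were not called (median log2 change -3.35). Aqp5, a water channel, stood at 1.11 and 1.67 CPM in basal cells and 58.3 and 72.4 CPM in luminal cells. Atp1b1, a subunit of the sodium pump, had a change of -3.59 ± 0.17.

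Cell cycle genes had few calls. Of 28 genes of the list, 2 were higher in basal cells, 5 were lower and 21 were not called (median log2 change -0.25). Mki67, a proliferation marker, stood at 47.8 and 48.9 CPM in basal cells and 62.8 and 66.6 CPM in luminal cells (log2 change -0.42 ± 0.19, adjusted p = 0.0651), and Top2a at 59 and 68.7 CPM in basal cells and 60.8 and 62.7 CPM in luminal cells. Mki67 was called lower under library size scaling (-0.58), with no filter, with the replicate block and in the 4 virgin libraries alone. Rrm2, a subunit of ribonucleotide reductase, was higher in basal cells (0.89 ± 0.18) and Birc5 (survivin) lower (-1.3 ± 0.21). The number of lower genes depended on the setting: it was 12 with the replicate block, 10 in the 4 virgin libraries alone, 9 under library size scaling and with no filter, 3 without luminal virgin replicate 1, 2 without basal virgin replicate 1 and 2 without basal virgin replicate 2.

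Of the transcripts with the highest levels per length, the mitochondrial protein-coding ones named here were not called. COX1 averaged 6316 CPM per kb in basal cells and 6639 CPM per kb in luminal cells (log2 change -0.07 ± 0.16) and was not called, and nor were COX2, COX3, ATP6, ATP8, CYTB and ND1. The highest level per length in luminal cells belonged to an identifier with no symbol, at 198 and 295 CPM in basal cells and 926 and 1048 CPM in luminal cells (log2 change -2.0 ± 0.21, adjusted p = 3.56e-06). Mt1, a metallothionein, was higher in basal cells, at 2036 and 2304 CPM in basal cells, against 910.2 and 933 CPM in luminal cells (log2 change 1.24 ± 0.14, adjusted p = 6.6e-06). Lcn2, an iron-binding defence protein, was lower, at 670.3 and 1000 CPM in basal cells and 1906 and 1989 CPM in luminal cells.

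Whether the layers differed in the same way at later stages was tested as the virgin log2 change minus the mean of the pregnant and lactating ones. The result was called for 7081 genes (44.3%), with 3232 above the later difference and 3849 below it. Under library size scaling 10172 were called, 998 above and 9174 below, and the median over all genes was -0.81 against -0.07 with TMM factors. Of the 7081 genes, 4101 had the same direction with a smaller difference in virgin glands, 868 had the same direction with a larger one, and 2112 had the opposite direction.

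Ptn (chromosome 6, 36714924 to 36810179), which encodes the growth factor pleiotrophin, had the lowest value. In virgin glands it stood at 122 and 124 CPM in basal virgin cells and 1073 and 1231 CPM in luminal virgin cells. In pregnant glands it stood at 87.6 and 97.3 CPM in basal pregnant cells and 2.73 and 2.42 CPM in luminal pregnant cells, and in lactating glands at 113 and 122 CPM in basal lactating cells and 8.03 and 6.97 CPM in luminal lactating cells. The basal level was similar at the 3 stages, while the luminal level was above 1000 CPM in virgin glands and below 10 CPM later. The virgin change minus the later one was -7.8 (adjusted p = 3.45e-11), or -8.55 under library size scaling. Piezo2, a mechanically gated channel, also had its highest level in luminal virgin cells. It stood at 1.39 and 2.08 CPM in basal virgin cells and 83.9 and 89.7 CPM in luminal virgin cells, and at no more than 3.82 CPM in any later library.

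The keratin genes Krt6a and Krt6b were lower in basal than in luminal cells of virgin glands and higher in basal cells at later stages. Krt6b stood at 32.6 and 24.6 CPM in basal virgin cells and 41.4 and 58.2 CPM in luminal virgin cells, a log2 change of -0.8 ± 0.2 that was not called without luminal virgin replicate 2 (adjusted p = 0.0583). In lactating glands it stood at 61.8 and 49.4 CPM in basal lactating cells and 0.31 and 0.3 CPM in luminal lactating cells. Dcn, which encodes the proteoglycan decorin and is a member of the fibroblast list, stood at 54.2 and 89.1 CPM in basal virgin cells and 346 and 169.9 CPM in luminal virgin cells, and in pregnant glands at 434 and 580.1 CPM in basal pregnant cells and 7.17 and 7.15 CPM in luminal pregnant cells. Its virgin log2 change was -1.85, or -1.25 without luminal virgin replicate 1, and its virgin change minus the later one was -7.3, or -6.7 without that library. Cntfr, a cytokine receptor gene, stood at 25.2 and 21.3 CPM in basal virgin cells and 14.5 and 16 CPM in luminal virgin cells, against at most 0.152 CPM in any later luminal library.

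In the opposite direction, Serpinb11 had a basal level in virgin glands alone. It stood at 39 and 45.9 CPM in basal virgin cells and 0.57 and 0.84 CPM in luminal virgin cells, and at no more than 0.994 CPM in any later library of either layer. Cd36, a fatty acid transporter, stood at 82.3 and 141 CPM in basal virgin cells and 20.5 and 28.4 CPM in luminal virgin cells, and in lactating glands at 90.1 and 100 CPM in basal lactating cells and 2284 and 2119 CPM in luminal lactating cells. For Cd36 the basal levels of both stages overlapped, and the luminal levels did not. St6gal1, a sialyltransferase, stood at 51.8 and 52.4 CPM in basal virgin cells and 13.2 and 10.9 CPM in luminal virgin cells, and in lactating glands at 18.9 and 23.9 CPM in basal lactating cells and 898 and 962 CPM in luminal lactating cells. Adamts5, Fam20a and Abcg2, a transporter that carries compounds into milk, also had higher luminal levels in lactating than in virgin glands, with virgin changes minus later ones of 5.77, 5.33 and 4.95. The virgin change taken alone was called for Cntfr, Fam20a and Abcg2, and leaving out 1 library could end that call: for Cntfr without basal virgin replicate 1 (adjusted p = 0.0801) or luminal virgin replicate 1 (0.0717), for Fam20a without basal virgin replicate 1 (0.366) or luminal virgin replicate 2 (0.261), and for Abcg2 without basal virgin replicate 2 (0.0581). Fam20a was also not called with RLE factors (adjusted p = 0.0605), DESeq2 (0.0504) or the 4 virgin libraries alone (0.0662).

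Several gene lists leaned one way in this comparison. Of all 15969 genes tested, 3232 lay above the later difference and 3849 below it with TMM factors. Under library size scaling 998 lay above and 9174 below, a shift of all genes that the list counts under that scaling share. Of the 28 cell cycle genes, 23 lay above the later difference and 0 below (median 1.66; Mki67 had log2 changes of -0.42 in virgin, -0.66 in pregnant and -4.18 in lactating glands), against 16 and 1 under library size scaling (median 0.92). Of the 18 contractile genes, 13 lay below and 0 above (median -1.26), and of the 17 integrin and hemidesmosome genes 12 lay below and 2 above (median -0.92); under library size scaling 17 and 15 lay below. All 4 luminal keratins lay below with TMM factors and under library size scaling, and 3 did with RLE factors. Of 15 tight junction genes 8 lay above and 1 below (median 0.64), but under library size scaling 3 lay above and 3 below (median -0.11).

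**Figure D5:**
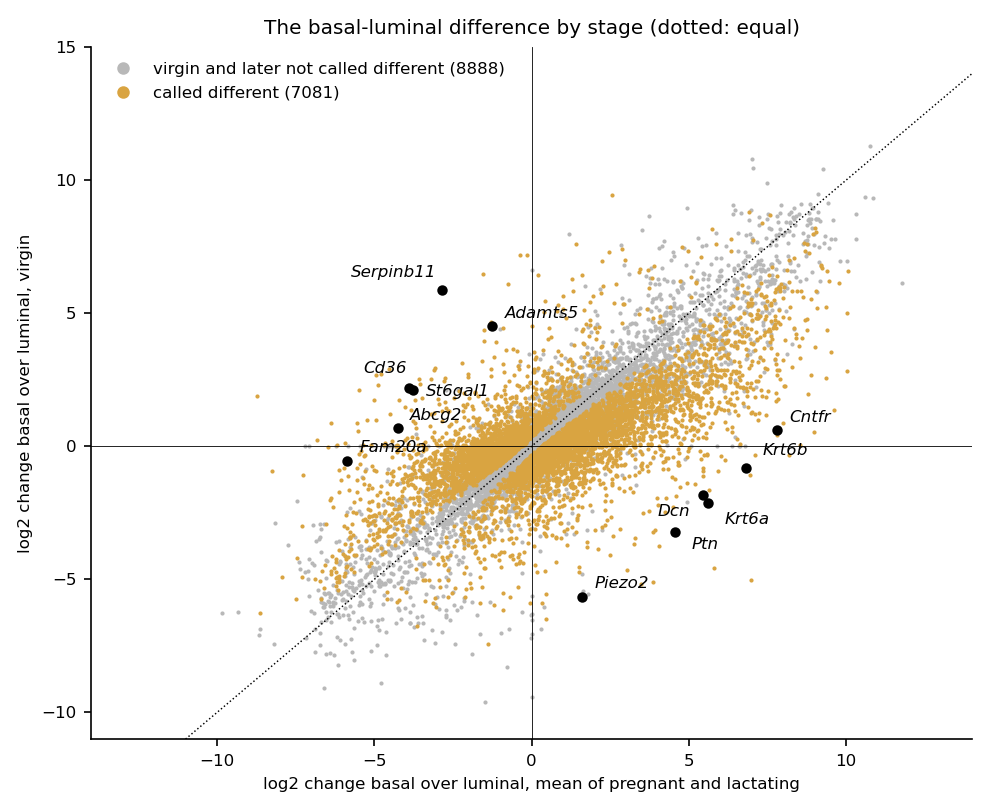
Log2 change of basal over luminal in virgin glands against the mean of the changes in pregnant and lactating glands for 15969 genes; colour marks the 7081 genes whose virgin change differed from the later mean, and the 12 named genes are labelled. Ptn, at -3.23 in virgin glands, is among the genes that lie on opposite sides of 0 in the 2 comparisons.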

How the data were processed

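RNA was counted per gene in sorted basal and luminal cells, 2 libraries per group. The authors deposited a table of raw counts per Entrez gene for 12 libraries, with a gene length; CASAVA 1.8.2, Subread 1.4.4, featureCounts, GRCm38 and mm10 stand in the submitters' processing notes with no role. The strand setting was not given in the sources used here, so counts of overlapping genes and near-identical copies are uncertain: 10 of 273 named genes with exon models share over 20% of their exon length with another gene, among them Nrarp (79.4%), Tagln (67.9%), Krt6a (24.8%), Ccn2 (23.2%), Ovol1 (22%), Timp3 (21.3%) and Dll1 (20.5%). The 12 deposited single-library files matched the table (0 counts differed). Symbols and coordinates came from RefSeq (GRCm38.p6) for 25275 of 27179 identifiers; counts without a symbol were 0.905% to 1.37% of a virgin library and stayed in.

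Here, genes were kept by filterByExpr (minimum count 10), scaled by TMM and fitted as 6 group means over all 12 libraries with edgeR 4.0.16 in R 4.3.3. The standard error is the size of the log2 change over the square root of its F statistic. The fit was also run on simulated counts with few changed genes and the same dispersion for every gene. In these data 62.8% of genes were called, so the simulation does not speak to scaling or error rates here. Replicates differed beyond counting noise (chi-square per degree of freedom 29.2 in basal and 16.5 in luminal virgin libraries). Counting intervals cover counting error only.

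The comparison and the 34 gene lists (480 of 481 entries matched) were chosen with earlier results of these data known. Named genes were the 12 highest and 12 lowest changes among called genes of at least 20 CPM whose groups do not overlap, the 5 largest called changes of each list with further members where a role is described, the 6 highest and 6 lowest stage differences, and the 10 most abundant per kilobase in each layer. Deviations of same-numbered libraries were correlated between groups across 6964 genes. Basal against luminal of the same stage gave 0.363 (pregnant), 0.259 (virgin) and 0.155 (lactating). Groups of different stages ranged from -0.28 (basal lactating against basal virgin) to 0.144 (basal virgin against luminal pregnant). Only the pregnant value exceeded all of these in size. No label says what the number marks, and these correlations do not establish a pairing, so a replicate block was used only as an alternative. Other alternatives were library size scaling, RLE factors, no filter, DESeq2 1.42.0, each virgin library left out, the 4 virgin libraries alone, and a test against a log2 change of 1. List counts carry no test.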

Additional observations from a re-analysis of the deposited data

Results flagged for a closer look

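The difference between layers in virgin glands departed from its mean in pregnant and lactating glands, by a test of the difference itself (edgeR, adjusted over all genes), for 7081 genes. Named genes above the later difference, on the log2 scale, were Serpinb11 (8.72), Cd36 (6.07), St6gal1 (5.88), Adamts5 (5.77), Fam20a (5.33) and Abcg2 (4.95). Named genes below it were Ptn (-7.8), Krt6a (-7.75), Krt6b (-7.6), Dcn (-7.3), Piezo2 (-7.26) and Cntfr (-7.19). Each of the 12 kept its sign under library size scaling. With 2 libraries per group, no check for single outlying samples was made.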

How the results depend on the processing

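The settings were library size scaling, RLE factors, no filter, DESeq2, each virgin library left out, the replicate block and the 4 virgin libraries alone. In all of them the counts of called, higher and lower genes and of called members pooled over all lists stayed within 1.5 times. Counts of single lists moved more, and only part of the changes on leaving out a library is given with the lists. Lists without such a count, among them contraction signalling and luminal transcription factors, changed as well. With a virgin library left out, called genes ranged from 8620 to 9091, higher genes from 4390 to 4657, lower genes from 4195 to 4434, stage differences from 5873 to 6478 and called list members from 335 to 338. The replicate block gave 10520 called genes and 7688 stage differences; among named genes it ended the calls of Cd3e and Alas2 and made calls of Gata3 and Mki67. Tested against a log2 change of 1, there were 3987 called genes, 2458 higher, 1529 lower and 2057 stage differences; a stricter null gives fewer by construction. Library size scaling moved the median of all genes by -0.16, and 42% of calls were then higher in basal cells, against 50.3%. Values that were not called crossed 0 in some settings, and the cause was not tested. Under library size scaling these were COX3 (-0.089), ATP6 (-0.082), ND1 (-0.146), F11r (-0.011), Snai1 (-0.037) and Top2a (-0.11). ATP8 was 0.004 and Grhl2 0.023 with RLE factors and with DESeq2, Grhl2 was 0.003 in the 4 virgin libraries alone, and ND1 was -0.005 with no filter. With a virgin library left out, ND1 ranged from -0.106 to 0.134, ATP8 from -0.061 to 0.015, COX2 from -0.098 to 0.026, CYTB from -0.169 to 0.046, Grhl2 from -0.1 to 0.093, Fos from -0.047 to 0.626, Fzd4 from -0.112 to 0.393, Gna11 from -0.224 to 0.043, Snai1 from -0.004 to 0.241 and Top2a from -0.063 to 0.155. With 2 libraries per group the spread is shared over 6 groups, and folds over luminal counts near 0 are limited by depth.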
